A study of Homo sapiens with 6 samples.

Results

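The Prp19 complex is a set of proteins that joins the spliceosome as it becomes catalytically active and stays with it through both steps of intron removal. CDC5L is the core protein with DNA-binding-like Myb repeats. The paper describes it as the counterpart of a yeast cell cycle gene, and reads its likeness to c-Myb as a possible role in transcription. The paper proposes that CDC5L drives expression of FAH, the last enzyme of tyrosine breakdown. There, chromatin immunoprecipitation found tagged CDC5L at a site of the FAH gene. In the same paper, siRNAs against CDC5L lowered FAH mRNA and protein. PRPF19 is the ubiquitin ligase that names the complex, PLRG1 and BCAS2 are the other core proteins, and CTNNBL1 and CWC15 bind alongside them. XAB2, CRNKL1 and AQR are related subunits that hold the intron and the small nuclear RNAs of the active spliceosome. The genes were taken by name: CDC5L and the listed subunits, each read by its brightest probe set among those carrying 1 gene symbol. That gave 8 of 9 listed genes among 18372 genes measured. CRNKL1 was not analysed here.

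The samples were A375 cells, an established human melanoma line, 72 h after transfection with an siRNA against FAH (siFAH, 3 arrays) or with a control siRNA (3 arrays). All 6 were read on Affymetrix Human Gene 1.0 ST arrays, which give 1 log2 signal per probe set and do not count molecules. The design note calls the arrays of a group biological replicates, and the paper says that the cells were transfected in triplicate. Neither says that the cultures were set up independently, so the p values below set differences against the spread between these samples only. The knockdown is of FAH and not of CDC5L, it rests on 1 siRNA, and other targets of that siRNA were not examined.

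The targeted gene was low in every library labelled siFAH. FAH had log2 signals of 4.92, 4.60 and 4.92 in siFAH cells, against 5.48, 5.59 and 5.68 in control siRNA cells. The 2 groups did not overlap, and the log2 fold change was -0.77 (SE 0.10, limma adjusted p = 0.00213). Across the arrays the median log2 signal was 5.003 to 5.038 in siFAH cells and 4.922 to 4.996 in control siRNA cells, with control replicate 3 the lowest. The lineage factor SOX10 had a mean log2 signal of 8.36 in siFAH cells and 8.56 in control siRNA cells, whereas the pigment genes PMEL, MLANA, TYR and TYRP1 lay between 2.87 and 3.88 in both groups, which is low on these arrays. These markers, and LYZ below, were named after their values were seen. Of the 9 melanocyte lineage markers measured none was called, and their summed linear signal was 719 to 745 in siFAH cells and 737 to 778 in control siRNA cells. The marker sums for epithelial cells were 136 to 151 against 126 to 146, and those for fibroblasts 151 to 156 against 147 to 153, in siFAH and control siRNA cells, with none of their genes called. The blood cell marker sum was 97.7 to 109 in siFAH cells and 118 to 127 in control siRNA cells, and 1 of its 5 genes, LYZ, fell by 0.51 on the log2 scale (limma adjusted p = 0.0147). The part of any of these in the results below was not tested.

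Of the 8 measured genes, PLRG1 alone passed the test after adjustment, and it was lower after FAH knockdown. CDC5L and AQR were also lower on every siFAH array than on any control array, by less, and did not pass the test after adjustment. XAB2 lay slightly lower and BCAS2 slightly higher without overlap, and PRPF19, CTNNBL1 and CWC15 overlapped between groups. Calls rest on limma p values adjusted across every gene measured, at a limit of 0.05. Among all genes 6.38% were called lower and 3.48% higher, beside 1 of 8 and 0 of 8 here. The groups did not overlap for 4 of the 8 genes in the lower direction and 1 in the higher, where 18.6% and 13.4% of all genes did the same. The signs were 6 negative and 2 positive, and the median log2 fold change of the 8 genes was -0.10, with a median of 0.01 over all genes. The 8 genes are bright, with group mean log2 signals of 6.24 (CWC15, control siRNA) to 8.90 (PRPF19, control siRNA). The 4593 brightest of all genes, with a median log2 signal of 7.55, had a median log2 fold change of -0.09, close to that of the 8. The part of signal level in the median of the 8 genes was not tested. In these bulk RNA samples, fewer cells of a kind and less RNA per cell cannot be told apart.

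**Figure D1:**
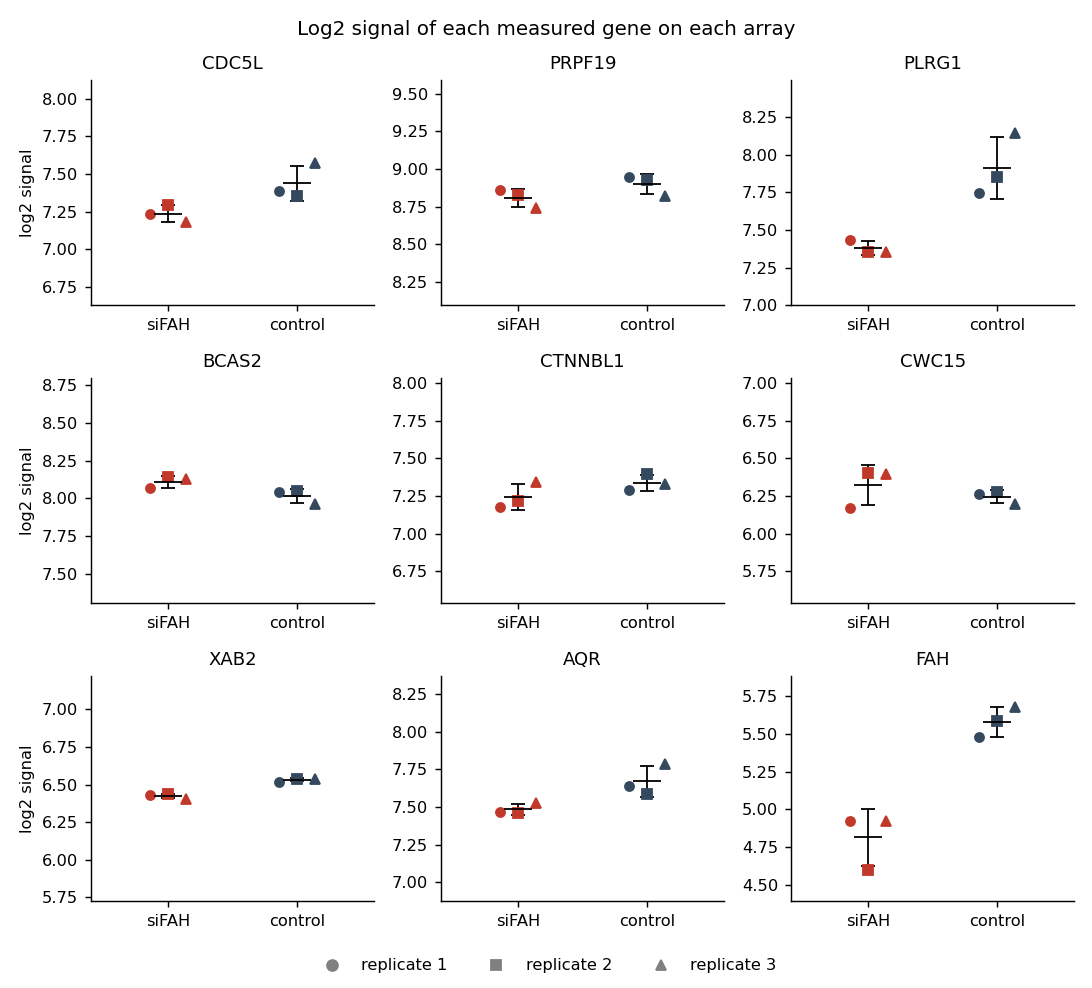
Log2 signal (vertical axis) of CDC5L, the other measured subunits and FAH on each of 3 siFAH arrays (red) and 3 control siRNA arrays (blue). Symbols give the replicate, the horizontal line is the group mean and the bars are 1 SD, every panel spans the same number of log2 units, and PLRG1 shows the widest gap among the subunits, with group means of 7.38 and 7.91.

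CDC5L, on chromosome 6, was read by probe set 8120022. Its promoter is shown because it carries, at both of the marked places, a CG-rich element that few promoters hold. The sequence comes from RefSeq (GRCh38.p14, chr6:44387456-44387755, plus strand) and covers 250 bases before to 50 bases after the annotated start, with the element in capitals.

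CDC5L: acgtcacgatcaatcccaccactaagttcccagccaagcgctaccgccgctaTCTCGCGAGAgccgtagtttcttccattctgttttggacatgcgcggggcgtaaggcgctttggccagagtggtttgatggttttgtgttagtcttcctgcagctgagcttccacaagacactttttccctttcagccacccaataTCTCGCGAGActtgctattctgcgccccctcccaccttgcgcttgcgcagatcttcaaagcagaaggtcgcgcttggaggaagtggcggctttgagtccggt

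The letters searched were TCGCGAGA, on both strands, and they occur in 1.15% of the 35116 promoters of this length. In CDC5L the matches on the 2 strands overlap, and they cover bases -198 to -189 and -52 to -43 counted from the start. No promoter of the other listed genes held them.

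CDC5L had log2 signals of 7.23, 7.30 and 7.18 in siFAH cells, against 7.39, 7.35 and 7.57 in control siRNA cells. Every siFAH array was below every control array, but the nearest pair, siFAH replicate 2 and control replicate 2, lay almost together. The means were 7.24 ± 0.06 in siFAH cells and 7.44 ± 0.12 in control siRNA cells (SD, n = 3 each). This gave a log2 fold change of -0.20 (SE 0.08, 95% interval -0.37 to -0.03), a fold of 0.870. The unadjusted limma p was 0.0260 and the adjusted p was 0.131, so CDC5L was not called. A two-sided exact permutation test gave p = 0.1, the smallest that 3 against 3 arrays allow. The gap was smaller without control replicate 3, where the log2 fold change was -0.13 (limma adjusted p = 0.326).

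PRPF19 assembles into a tetramer around which the complex is built. It had log2 signals of 8.86, 8.83 and 8.74 in siFAH cells, against 8.95, 8.93 and 8.82 in control siRNA cells. These ranges overlapped, since the lowest control array lay below the highest siFAH array. The log2 fold change of PRPF19 was -0.09, with a 95% interval of -0.25 to 0.06 (limma adjusted p = 0.439).

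PLRG1, on chromosome 4, encodes a WD40 repeat protein that binds CDC5L directly, and was read by probe set 8103289. It is the gene that passed the test, so its promoter is given for comparison with that of CDC5L. The sequence is from RefSeq (GRCh38.p14, chr4:154550351-154550650, minus strand), over the same window around the start, and capitals mark the ETS core CCGGAAG or its complement.

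PLRG1: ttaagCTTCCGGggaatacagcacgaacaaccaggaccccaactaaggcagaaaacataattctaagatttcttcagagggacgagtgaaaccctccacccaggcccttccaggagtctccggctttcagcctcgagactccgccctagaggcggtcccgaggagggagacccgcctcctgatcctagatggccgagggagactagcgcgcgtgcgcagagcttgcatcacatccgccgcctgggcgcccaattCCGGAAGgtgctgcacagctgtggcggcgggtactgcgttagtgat

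This core lies at -245 to -239 on the opposite strand and at 5 to 11 on the gene's own strand. Of the 9 listed genes, 4 have it in the window (PLRG1, CWC15, XAB2 and AQR), and so do 10.3% of all promoters. A CCAAT box was found in 6 of the 9 promoters, against 34.6% of all, and a GC box (GGGCGG) in 6 of the 9, against 45.0% of all. A TATA box (TATAAA) was found for CWC15 alone, against 11.5% of all promoters. The motifs were picked after the sequences had been read, and a match to letters is a description of the window only.

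PLRG1 had log2 signals of 7.44, 7.35 and 7.35 in siFAH cells, against 7.74, 7.85 and 8.14 in control siRNA cells. The siFAH arrays lay close together, and all were well below the lowest control array. The means were 7.38 ± 0.05 in siFAH cells and 7.91 ± 0.21 in control siRNA cells (SD, n = 3 each). This gave a log2 fold change of -0.53 (SE 0.10, 95% interval -0.75 to -0.32), a fold of 0.691. PLRG1 was called lower (limma adjusted p = 0.0103) and stood at 422 among 18372 genes ordered by p. Its controls were the less even group, with replicate 3 the highest. Without that array the log2 fold change was -0.42 and still called (limma adjusted p = 0.0210), and the call held with each of the 6 arrays left out in turn.

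BCAS2 is the small coiled-coil protein of the core. Its log2 signals were 8.07, 8.14 and 8.13 in siFAH cells, against 8.04, 8.05 and 7.96 in control siRNA cells. The groups did not overlap, though the gap between them was narrow. BCAS2 thus had a log2 fold change of 0.09 (95% interval -0.05 to 0.24, limma adjusted p = 0.403).

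CTNNBL1 is an armadillo-repeat protein that recognises the nuclear localisation signal of CDC5L. Its log2 signals were 7.18, 7.22 and 7.34 in siFAH cells, against 7.29, 7.39 and 7.33 in control siRNA cells. One siFAH array, replicate 3, lay inside the range of the controls. For CTNNBL1 the log2 fold change was -0.09 (95% interval -0.25 to 0.07, limma adjusted p = 0.454). CWC15, a small protein first described in yeast as a partner of the CDC5L counterpart, had log2 signals of 6.17, 6.40 and 6.39 in siFAH cells, against 6.26, 6.28 and 6.20 in control siRNA cells. Here siFAH replicate 1 was the lowest of all arrays and the other two siFAH arrays the highest. For CWC15 the log2 fold change was 0.08 (95% interval -0.10 to 0.25, limma adjusted p = 0.580).

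XAB2 is the human counterpart of yeast Syf1 and also acts in transcription-coupled DNA repair. Its log2 signals were 6.43, 6.43 and 6.41 in siFAH cells, against 6.52, 6.54 and 6.54 in control siRNA cells. Both groups were tight, with SDs of 0.014 and 0.011, and did not overlap. The log2 fold change of XAB2 was -0.11 (95% interval -0.25 to 0.03, limma adjusted p = 0.302), which limma sets against a spread informed by all genes and not by those SDs alone. AQR, the helicase that binds the intron, had log2 signals of 7.46, 7.46 and 7.53 in siFAH cells, against 7.64, 7.59 and 7.79 in control siRNA cells. All siFAH arrays were below all control arrays. The log2 fold change of AQR was -0.19 (SE 0.07, 95% interval -0.35 to -0.02), with an unadjusted limma p of 0.0277 and an adjusted p of 0.136. Without control replicate 3 it was -0.13.

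**Figure D2:**
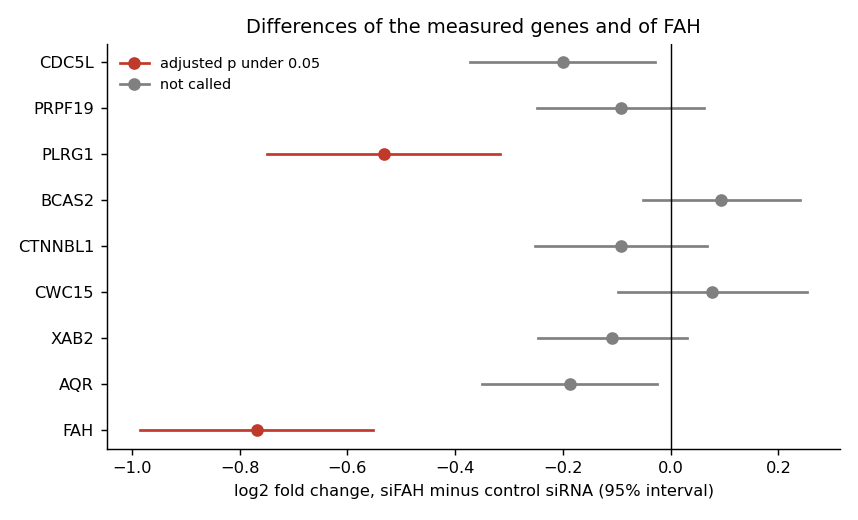
Differences between siFAH and control siRNA arrays, as log2 fold changes on the horizontal axis (siFAH minus control), for the 8 measured genes and FAH. Points are limma estimates from 3 siFAH and 3 control arrays, lines are 95% intervals and red marks an adjusted p under 0.05, which PLRG1 (-0.53) and FAH (-0.77) reached.

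At the limits named in the methods, at least 1.2-fold with an unadjusted p under 0.05 (here limma's), the same count resulted, 1 of 8 lower, where 7.83% of all genes were lower. Control replicate 3 was the highest control for CDC5L, PLRG1, XAB2 and AQR and the lowest for PRPF19, BCAS2 and CWC15. No measured gene changed the sign of its log2 fold change when the arrays were rescaled, centred or left out in turn. The median SD within groups was 0.075 for these genes and 0.095 for all genes.

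**Figure D3:**
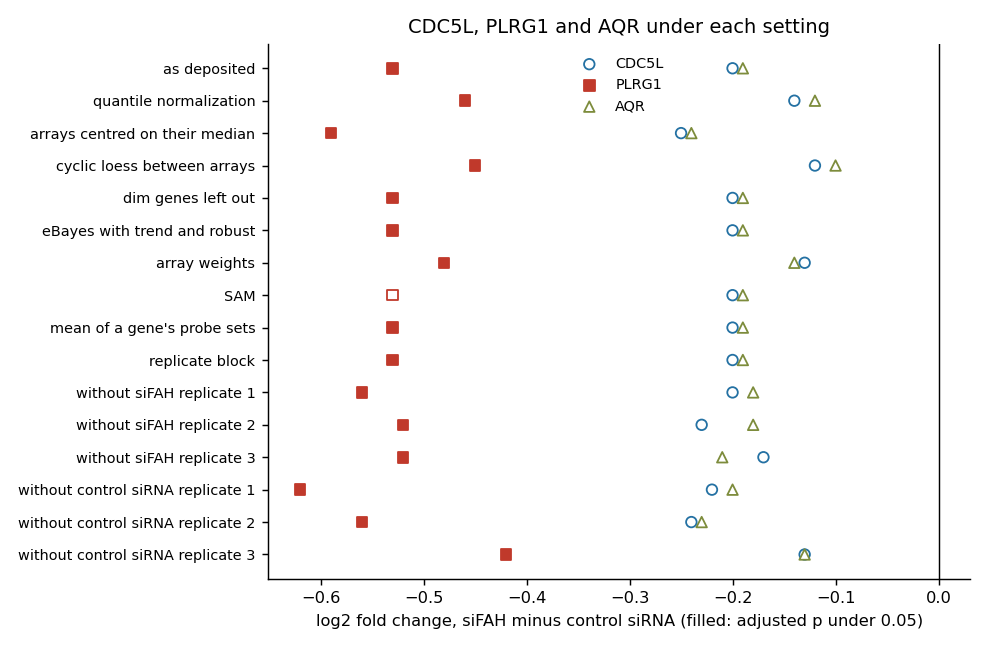
On the horizontal axis, the log2 fold change (siFAH minus control) of CDC5L, PLRG1 and AQR under each way of processing the arrays (vertical axis), including each array left out. Filled symbols have an adjusted p under 0.05; PLRG1 stays between -0.62 and -0.42 and CDC5L between -0.25 and -0.12.

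The pattern of CDC5L over the 6 arrays was compared with those of the 9185 genes whose mean signal reached the median of all genes, each centred on its own mean. The measure was the root mean square (RMS) difference, in log2 units, so a small value means nearly the same profile. The closest genes were AZI2, an adaptor of the kinase TBK1 (RMS 0.0137), and NF1, the RAS GTPase-activating tumor suppressor (RMS 0.0143). KDM5B, a histone H3K4 demethylase (RMS 0.0191), MYOF, a membrane repair protein (RMS 0.0203), and TARS2, the mitochondrial threonyl-tRNA synthetase (RMS 0.0208), followed. Like CDC5L, all 5 were highest in control replicate 3 and were not called, with log2 fold changes of -0.23 to -0.18. This likeness follows from how they were picked, by nearness to CDC5L. Within the complex AQR was the nearest to CDC5L (RMS 0.055, place 517 in that order), then XAB2 (0.083, place 2011). PLRG1 (0.183, place 7068) and CWC15 (0.186, place 7144) were the farthest. The measure counts the size of differences as well as their shape. PLRG1, like CDC5L, was lower on every siFAH array and highest in control replicate 3, but its gap was larger. Subunits also paired otherwise: PRPF19 lay 0.053 from XAB2 and BCAS2 lay 0.054 from CWC15. These distances describe 6 arrays and carry no test.

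The rest of the spliceosome was read from 6 lists of 82 genes, of which 77 were measured. In siFAH cells 8 of the 77 genes were called higher and 9 lower, and 60 were not called, where 3.48% of all genes were called higher and 6.38% lower. Their median log2 fold change was -0.08 on the deposited values. It moved with the scaling, to -0.03 after quantile normalization, -0.002 after cyclic loess and -0.14 after centring. The groups did not overlap for 17 of the 77 genes in the higher direction and 26 in the lower, beside 13.4% and 18.6% of all genes. Of the 9 called lower, 7 were on the U5 snRNP list or the U4/U6 and tri-snRNP list, which hold 8 and 21 of the 77 measured genes. Of the 8 called higher, 6 were small ring proteins that encircle the small nuclear RNAs. These counts moved with single arrays, from 9 higher and 6 lower without siFAH replicate 1 to 2 higher and 0 lower without siFAH replicate 3. Without siFAH replicate 2, control replicate 2 or control replicate 3 they were 2 higher and 1 lower each, and without control replicate 1 they were 8 and 9.

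**Figure D4:**
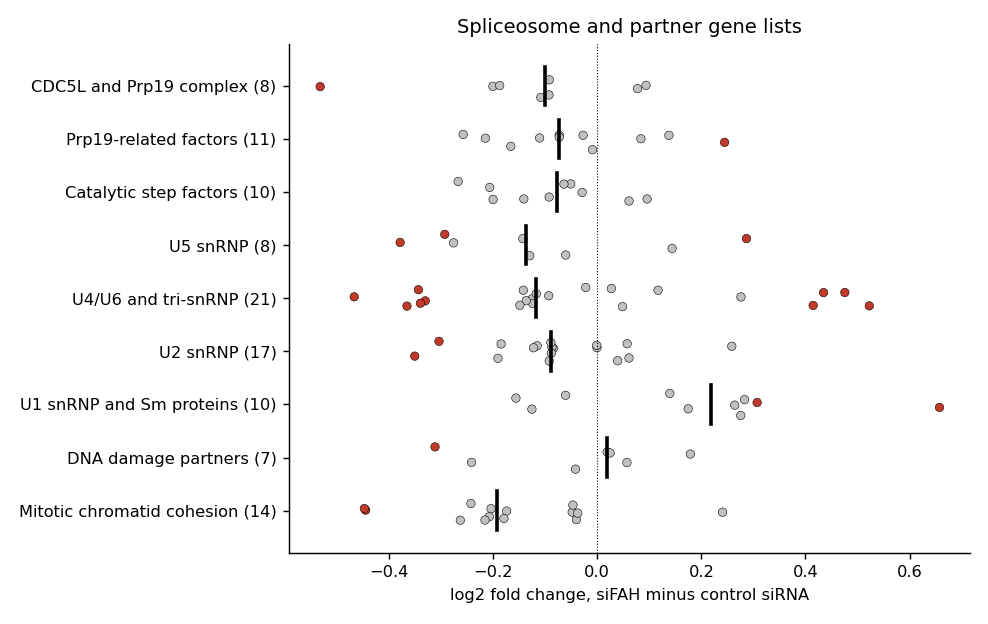
Each point is a measured gene, placed by its log2 fold change (siFAH minus control, horizontal axis), from the Prp19 complex and in the other lists (vertical axis, with the number measured). Red points have an adjusted p under 0.05 and black bars are list medians, which run from -0.19 for mitotic chromatid cohesion to 0.22 for the U1 snRNP and Sm proteins.

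Among 11 measured Prp19-related factors 1 was called, and it was higher, as were 3.48% of all genes. SYF2, a partner of the intron-holding subunits, had log2 signals of 7.02, 7.15 and 7.12 in siFAH cells, against 6.83, 6.89 and 6.83 in control siRNA cells (log2 fold change 0.24, limma adjusted p = 0.0469). It ran opposite to PLRG1, and its call held in 1 of 6 leave-one-out fits. The median log2 fold change of this list was -0.07. None of 10 catalytic step factors was called, and their median was -0.08. The one with the largest log2 fold change, CDC40, a factor of the second catalytic step, stood at -0.27 (limma adjusted p = 0.0530).

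In the U5 snRNP, which holds the exons at the active site, 2 of 8 genes were called lower and 1 higher (6.38% and 3.48% of all genes), with a median log2 fold change of -0.14. PRPF8, the scaffold of the catalytic center, had log2 signals of 9.49, 9.30 and 9.25 in siFAH cells, against 9.64, 9.68 and 9.85 in control siRNA cells. It fell by 0.38 on the log2 scale (limma adjusted p = 0.0236). EFTUD2, the GTPase beside it, fell by 0.29 (limma adjusted p = 0.0468), and TXNL4A, a small thioredoxin-like protein, rose with a log2 fold change of 0.29 (limma adjusted p = 0.0482). Each of these calls was sensitive to the arrays used, holding in 2, 0 and 1 of 6 leave-one-out fits for PRPF8, EFTUD2 and TXNL4A.

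The U4/U6 and tri-snRNP list is named for the particles that deliver U6 to the active site. It had 4 genes called higher and 5 lower of 21 measured, where the shares of all genes were 3.48% and 6.38%. PRPF38A, needed for activation of the assembled spliceosome, had log2 signals of 8.04, 7.84 and 7.89 in siFAH cells, against 8.26, 8.30 and 8.60 in control siRNA cells (log2 fold change -0.47, limma adjusted p = 0.0171). It was the lowest gene of the list, and its call held in 4 of 6 leave-one-out fits. The 4 others called lower were SMU1, PRPF4, SART3 and USP39, named after their values were seen, at -0.37 to -0.33. The 4 genes called higher were all Lsm proteins, which form the ring at the end of U6 RNA. LSM6 had log2 signals of 5.80 to 6.10 in siFAH cells, against 5.38 to 5.53 in control siRNA cells, with no overlap. It rose with a log2 fold change of 0.52 (limma adjusted p = 0.00642), in all 6 leave-one-out fits. LSM8, the subunit that keeps the ring in the nucleus, rose with a log2 fold change of 0.48 (limma adjusted p = 0.0443), and its call held in 2 of 6.

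The whole Lsm ring, LSM2 to LSM8, was gathered after these values were seen. Of its 7 genes, 4 were called higher and 0 lower (3.48% and 6.38% of all genes), with a median log2 fold change of 0.41. LSM7 (0.43, limma adjusted p = 0.00990) was called in all 6 leave-one-out fits and LSM5 (0.41, limma adjusted p = 0.0334) in 2. LSM2 stood at 0.28 (limma adjusted p = 0.0837). The remaining LSM3 and LSM4 had log2 fold changes of -0.14 and -0.09 and were not called. LSM2, LSM5 and LSM8 also moved together within the groups. In each of them control replicate 1 was the highest control and 3 the lowest, and siFAH replicate 3 the highest and 1 the lowest. SNRPE and SNRPG of the Sm ring had that order too, whereas LSM3, LSM4, LSM6 and LSM7 did not share it in full.

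In the U1 snRNP and Sm protein list 2 of 10 genes were called higher and 0 lower (3.48% and 6.38% of all genes), with a median log2 fold change of 0.22. Both belong to the Sm ring, which encircles the U1, U2, U4 and U5 RNAs. SNRPG had log2 signals of 8.75, 9.22 and 9.27 in siFAH cells, against 8.62, 8.46 and 8.19 in control siRNA cells. Its groups did not overlap, yet siFAH replicate 1 lay nearer to the controls than to its own group. The log2 fold change of SNRPG was 0.66 (limma adjusted p = 0.0199) on the brightest probe set. On the mean of its 2 probe sets it was 0.35 (limma adjusted p = 0.0440), so its other probe set differed by much less. The call on the brightest probe set held in 2 of 6 leave-one-out fits. SNRPD1 rose with a log2 fold change of 0.31 (limma adjusted p = 0.0345), in 1 of 6.

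The other Sm genes, also named after their values were seen, were not called. SNRPF, SNRPE and SNRPD2 had log2 fold changes of 0.28, 0.28 and 0.26, and SNRPD3 and SNRPB of -0.16 and -0.06. SNRPE has 2 probe sets, and on their mean its log2 fold change was 0.14 (limma adjusted p = 0.293). The sign of SNRPB turned under other scalings (0.01 after quantile normalization and 0.03 after cyclic loess). Sm and Lsm genes have processed pseudogenes, and cross-hybridisation to them was not tested. SNRPG is on chromosome 2, but its brightest probe set, 8026339, is numbered among those of chromosome 19 genes. SNRPE is on chromosome 1, and its brightest, 8160033, is numbered among those of chromosome 9 genes. Whether these 2 probe sets read the genes' own loci was not tested.

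**Figure D5:**
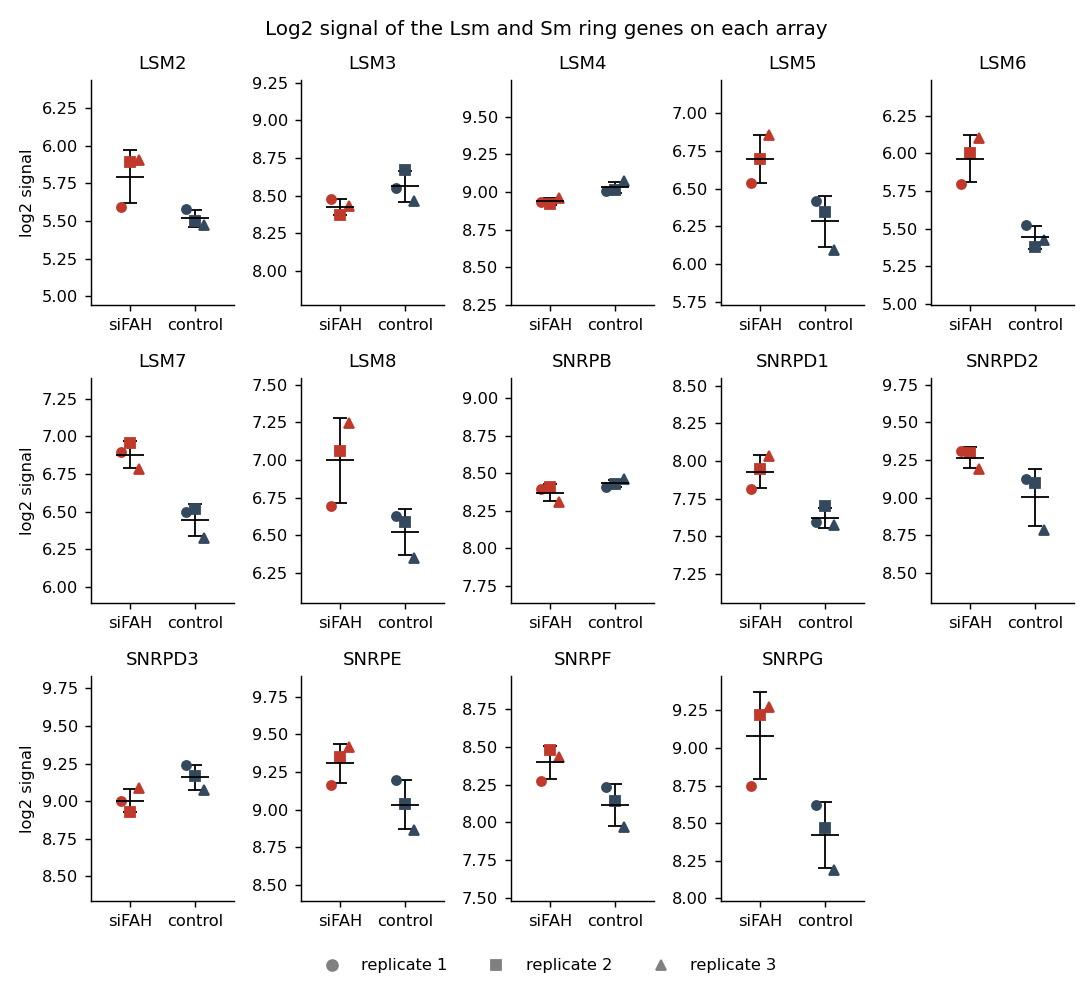
Log2 signal (vertical axis) of the 7 Lsm and 7 Sm ring genes on each of 3 siFAH arrays (red) and 3 control siRNA arrays (blue), with group means and bars of 1 SD, and every panel spanning the same number of log2 units. SNRPG, on its brightest probe set, and LSM6 show wide gaps (log2 fold changes of 0.66 and 0.52), while LSM4 and SNRPB stay near their controls.

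In the U2 snRNP, which marks the branch point, 2 of 17 genes were called lower and 0 higher, with a median log2 fold change of -0.09. Since 6.38% of all genes were called lower and 3.48% higher, these few calls are near the background. SF3B3 (-0.35, limma adjusted p = 0.0385) and SF3A3 (-0.30, limma adjusted p = 0.0456) are proteins of its SF3 subcomplexes. These calls held in 2 and 1 of 6 leave-one-out fits. Signal level and gene length moved with the direction of the calls. The splicing genes called higher had a median genomic span of 14.1 kb and a median mean log2 signal of 6.87, those called lower 34.9 kb and 8.30, and those not called 17.9 kb and 7.50. Over all genes the median log2 fold change was 0.05 for the 4593 dimmest and -0.09 for the 4593 brightest, and 0.06 for the 4586 with the shortest spans and -0.03 for the 4586 with the longest. The part of level and length in these results was not tested.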

How the data were processed

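Total RNA of 6 samples was read on Affymetrix Human Gene 1.0 ST arrays. The deposited values are log2 signals that the authors made by RMA, with global scaling named as the normalization and no version given in the sources used here. The authors' sources differ on the RNA and labeling kits. No rescaling was applied. Of 28829 probe sets, 19291 carry 1 gene symbol, 1735 several, and 7803 are not named here; 19260 were matched by gene ID. The brightest probe set per symbol was kept (18372 genes).

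SiFAH minus control siRNA was fitted with lmFit and eBayes (limma 3.58.1, R 4.3.3; 4 residual and 6.52 prior degrees of freedom), with two-sided p values, Benjamini-Hochberg adjustment across the genes fitted and calls at under 0.05. Replicate numbers were not treated as pairs. Alternatives were quantile normalization, median centring, cyclic loess, leaving out the dimmest genes, trend and robust, array weights, SAM (fudge constant 0.113), averaging the probe sets of a gene, a replicate block, the methods' limits and each array left out.

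The members and lists were chosen with earlier results of these data known. Genes named were the members, FAH, the 3 called genes of each spliceosome, DNA damage or cohesion list with the largest change (otherwise the 1 largest), and the 5 genes most like CDC5L; others are marked as named after their values were seen. Promoter sequences are RefSeq's, matched by symbol for 9 of 9 listed genes. Figures were drawn with matplotlib 3.10.9.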

Additional observations from a re-analysis of the deposited data

How the results depend on the processing

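PLRG1 kept its call under rescaling, centring, the dim filter, trend and robust, array weights, the mean of probe sets, the replicate block and each left-out array (log2 fold change -0.62 to -0.42). SAM gave -0.53 with an adjusted p of 0.105, and so 0 members, 0 splicing genes and 0 of all genes in either direction; by construction its adjusted p could not fall below 0.1 with 20 arrangements. At an unadjusted SAM p under 0.05 and 1.2-fold, chosen after seeing the data, 0 members were higher and 1 lower, 11 and 11 splicing genes, and 855 and 1429 of all genes. CDC5L was not called under any alternative (log2 fold change -0.25 to -0.12, adjusted p 0.0857 to 0.326). Splicing genes called higher were 5 after centring and 13 with array weights, beside 8, and those called lower were 4 after cyclic loess and 14 with trend and robust, beside 9. Of all genes, 416 were higher after centring and 1170 with array weights, beside 639. With 1 array left out the splicing calls ranged from 2 to 9 higher and 0 to 9 lower, and those of all genes from 267 to 653 higher and 390 to 1192 lower; the low counts came without siFAH replicate 2 (271 and 440) or 3 (267 and 390) and without control replicate 2 (267 and 472) or 3 (289 and 438). SNRPB turned its sign, to 0.01 (quantile) and 0.03 (cyclic loess). The share of calls that were lower was 64.7%, against 80.1% after centring and 56.2% after cyclic loess.

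Samples sharing a replicate number did not deviate together (correlations -0.155, -0.0891 and -0.274), and no sample correlated best with its own number. With the replicate block 0 members were higher and 1 lower (PLRG1 adjusted p = 0.0241, CDC5L 0.235), 3 splicing genes were higher and 1 lower, and 299 of all genes were higher and 462 lower. The number of arrays limits the precision: differences of the size seen for CDC5L and AQR were not called at 3 against 3.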

Other observations

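Outside the splicing reaction, the Prp19 complex is known to act at single-stranded DNA, where it modifies the RPA complex during checkpoint signaling. Of 7 DNA damage partners measured, 1 was called lower, where 6.38% of all genes were. RPA1, the large subunit of RPA, had log2 signals of 6.61, 6.55 and 6.65 in siFAH cells, against 6.88, 6.90 and 6.97 in control siRNA cells. It fell by 0.31 on the log2 scale (limma adjusted p = 0.0179), and the call held in 3 of 6 leave-one-out fits. The median log2 fold change of the list was 0.02.

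Loss of splicing factors is known to impair sister chromatid cohesion in human cells, partly through sororin (CDCA5). Of 14 cohesion genes, 2 were called lower and 0 higher, where 6.38% and 3.48% of all genes were. A negative log2 fold change was found for 13 of the 14, and for 8923 of all 18372 genes, and the median of the 14 was -0.19. ESCO2, the acetyltransferase that locks cohesin on replicated DNA, had log2 signals of 5.83, 5.86 and 5.96 in siFAH cells, against 6.27, 6.21 and 6.49 in control siRNA cells. It was called lower (log2 fold change -0.45, limma adjusted p = 0.0117) and remained so in all 6 leave-one-out fits. ESPL1, the protease separase that opens the cohesin ring, fell by 0.45 on the log2 scale (limma adjusted p = 0.0123), in 4 of 6. CDCA5 itself, named after its value was seen, stood at -0.26 (limma adjusted p = 0.0723). PTTG1, also named after its value was seen, was the gene with a positive log2 fold change, 0.24 (limma adjusted p = 0.0590). By flow cytometry the paper found fewer cells in S and G2 after FAH silencing. That assay used 2 siRNAs and an earlier time after transfection than the arrays. The part of that shift in these values was not tested. One signal per gene does not separate spliced from unspliced RNA.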
